A study of Mus musculus with 6 samples.

Results

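The insulin-like growth factor (IGF) system was followed in cerebellar tissue of daDREAM transgenic and wild-type mice through 10 genes: the ligands Igf1 and Igf2, the receptors Igf1r and Igf2r, and the binding proteins Igfbp2 to Igfbp7. Members were all probe sets that the platform annotation gives to exactly 1 of these gene symbols, which took 28 of the 45037 probe sets tested. Igfbp4 had 6 of them, Igf1r 5, Igf1 4 and Igfbp7 3. Igf2, Igf2r, Igfbp3 and Igfbp5 had 2 each, and Igfbp2 and Igfbp6 had 1 each.

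Total RNA of frozen cerebellum was hybridised to Affymetrix Mouse Genome 430 2.0 arrays. The daDREAM group held 3 arrays and the wild-type group 3, each array an independent biological replicate. DREAM is the product of Kcnip3 and silences its target genes until calcium binds it, and daDREAM is a mutant form that calcium does not release. The labels do not give the promoter of the transgene, nor the age, sex or strain of the mice. Levels are the authors' RMA values on a log2 scale, so a difference of 1 is a doubling.

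IGF1 and IGF2 are secreted peptides that act mainly through the receptor tyrosine kinase IGF1R, which promotes growth and survival of neurons and glia. IGF2R binds IGF2 without kinase signalling and carries it to lysosomes. The binding proteins hold the ligands outside cells and set how much reaches the receptors. In the adult rodent brain Igf2 transcripts come mostly from the choroid plexus and the meninges, and Igfbp2 transcripts from these and from astrocytes.

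The tissue carried its defining markers on every array. Pcp2, of Purkinje cells, stood between 12.43 and 12.47 in daDREAM and between 12.38 and 12.43 in wild type, and Gabra6, of granule cells, between 11.94 and 12.08 in daDREAM and between 12.03 and 12.07 in wild type. The 2 probe sets of Kcnip3 differed by 0.10 and 0.11 without passing the test, and since it is unknown if they read the transgene, they do not check the labels. The spread between arrays was larger in daDREAM than in wild type: the median SD over all probe sets was 0.203 in daDREAM and 0.133 in wild type, and over the 28 members 0.21 in daDREAM and 0.122 in wild type. The 18 probe sets of the hybridization controls, bacterial and phage RNA spiked into each sample, had a mean level of 9.47, 10.14 and 10.47 on the daDREAM arrays and of 8.99, 8.99 and 9.48 on the wild-type arrays. In bulk tissue, fewer cells of a type and less RNA per cell cannot be told apart.

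The upstream sequences of Igfbp2 and Igf2 are shown because these genes had the members that stood higher in daDREAM with no overlap between genotypes. Each window is the 250 bases before a start that RefSeq lists on GRCm38.p6: for Igfbp2 the more upstream of its 2 listed starts (chr1:72824230-72824479, plus strand), for Igf2 the most downstream of 4 (chr7:142657497-142657746, minus strand). Capitals mark GTCA, the core of the downstream regulatory element that DREAM binds, and GGGCGG, the GC box of Sp1-type factors, each searched on both strands. The motifs can share 1 base, and no matches overlapped in these windows.
Igfbp2: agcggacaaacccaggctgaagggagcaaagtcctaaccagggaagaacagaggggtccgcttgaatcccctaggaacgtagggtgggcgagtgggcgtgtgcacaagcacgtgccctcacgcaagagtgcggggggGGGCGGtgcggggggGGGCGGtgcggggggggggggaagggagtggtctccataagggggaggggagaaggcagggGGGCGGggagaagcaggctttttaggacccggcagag
Igf2: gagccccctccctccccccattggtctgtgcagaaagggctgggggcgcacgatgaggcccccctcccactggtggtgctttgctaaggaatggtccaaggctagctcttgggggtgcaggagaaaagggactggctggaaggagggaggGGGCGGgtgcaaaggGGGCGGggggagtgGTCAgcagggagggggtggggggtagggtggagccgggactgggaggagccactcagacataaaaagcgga
The Igfbp2 window held 3 GC boxes and 0 matches to GTCA, and the Igf2 window held 2 GC boxes and 1 match to GTCA. The window of the other Igfbp2 start held 2 matches to GTCA, and those of the other Igf2 starts held 1 to 4. Over 32841 RefSeq promoter windows of the same length, 80.2% held GTCA and 32.7% held the GC box. Of the 14 windows of the 10 genes, 10 held GTCA and 6 held the GC box. A match is no evidence of binding, bases after the start were not searched, and the probe sets do not tell the starts of a gene apart.

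None of the 28 member probe sets passed the test between genotypes. With limma and Benjamini-Hochberg adjustment over all probe sets, 0 of 28 had an adjusted p under 0.05 and the smallest was 0.998, where 0% of all probe sets were called. An unadjusted p under 0.05 was found at 2 of 28 members (7.14%), against 817 of all probe sets (1.81%). These were 1 probe set of Igf2 and the probe set of Igfbp2, both higher in daDREAM, a direction that 1.11% of all probe sets had at that p. The genotypes did not overlap at 3 members (10.7%), where 6.01% of all probe sets did not overlap. At 2 of the 28 members daDREAM was higher without overlap, against 3.75% of all probe sets, and at 1 of the 28 it was lower without overlap, against 2.26%. Signs were even, with 14 members higher, where 51.9% of all probe sets were higher, and 14 lower, a median difference of 0.00 against 0.01 over all probe sets, and a median absolute difference of 0.15 against 0.10. Probe sets of 1 gene share a transcript and the members were chosen with earlier results known, so these shares are descriptions.

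**Figure D1:**
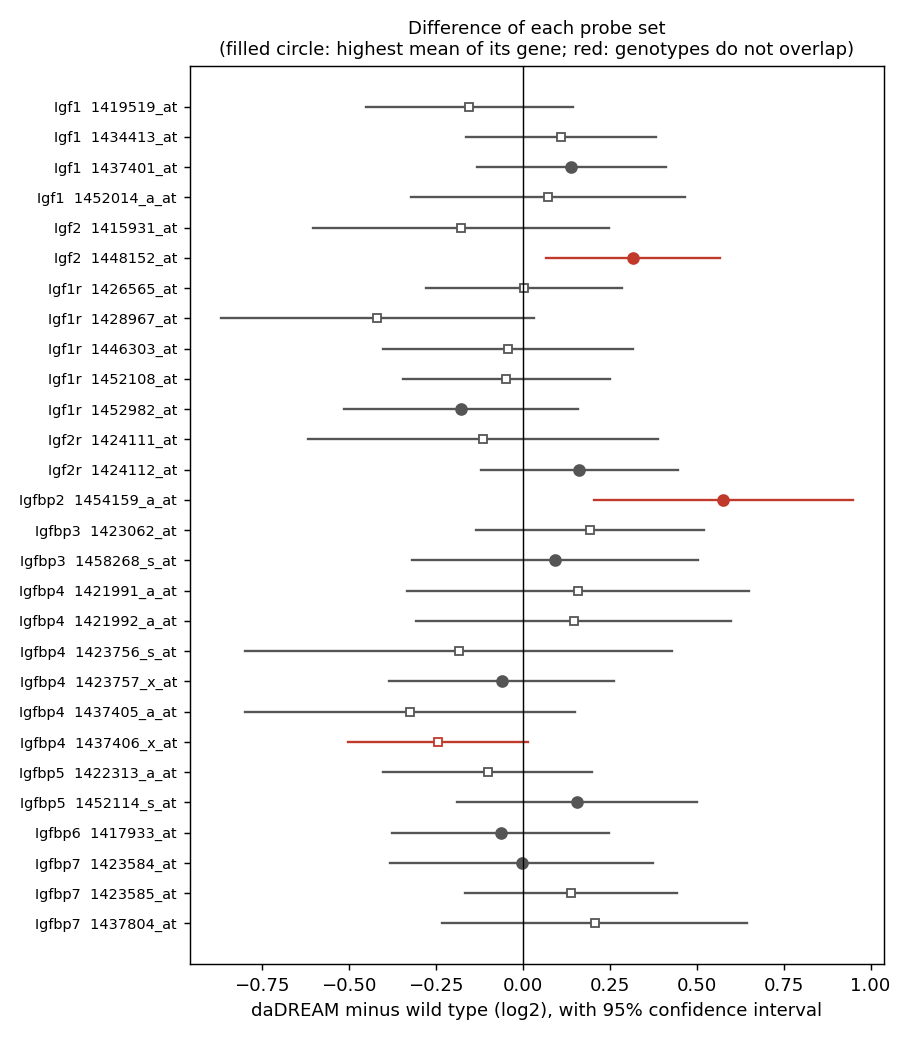
Difference of each member probe set, daDREAM minus wild type on the log2 scale, with its 95% confidence interval from limma (3 arrays per genotype). Filled circles are the probe set with the highest mean of each gene, and red marks the 3 probe sets whose genotypes do not overlap. The intervals of Igf2 1448152_at (0.07 to 0.57) and Igfbp2 1454159_a_at (0.21 to 0.95) lie above 0, and the other 26 include it.

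Of the ligands, Igf2 stood higher in daDREAM at its bright probe set. Igf2 is an imprinted gene that encodes a growth factor of fetal growth. Probe set 1448152_at read 9.29, 9.42 and 9.36 on the daDREAM arrays and 9.04, 9.02 and 9.06 on the wild-type arrays. Every daDREAM array was above every wild-type array, and the wild-type values lay within 0.04 of each other. The means were 9.36 ± 0.07 in daDREAM and 9.04 ± 0.02 in wild type (SD, n = 3 each), a difference of 0.32 or 1.25-fold with a 95% interval from 0.07 to 0.57 (limma unadjusted p = 0.0196, adjusted p = 0.998).

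The other Igf2 probe set did not follow. Probe set 1415931_at was dim, with a mean at percentile 30.8 of all probe sets, and read 3.71, 4.20 and 4.12 in daDREAM and 4.43, 3.90 and 4.23 in wild type. The genotypes overlapped, and the difference was -0.18 with an interval from -0.60 to 0.25. Averaged over both probe sets, the Igf2 difference was 0.07 (limma adjusted p = 0.998). Ins2, which encodes insulin and is the next protein-coding gene after Igf2 on chromosome 7 in the RefSeq table, differed by 0.05 (interval -0.45 to 0.55). Igf2os, an antisense transcript of the locus, chosen once its values were known, stood at -0.14 (interval -0.63 to 0.36).

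Igf1, the ligand made by neurons and microglia in the brain, had 95% intervals that included 0 at all 4 probe sets. The probe set with the highest mean, 1437401_at, read 5.60, 5.46 and 5.48 in daDREAM and 5.39, 5.26 and 5.47 in wild type. The highest wild-type array lay above the lowest daDREAM array, and the difference was 0.14 with an interval from -0.13 to 0.41. The other 3 differed by -0.15, 0.07 and 0.11, and the 4 intervals together ran from -0.45 to 0.47. All 4 were near or below the middle of the table, at percentiles 22.4 to 53.9, where RMA compresses differences.

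**Figure D2:**
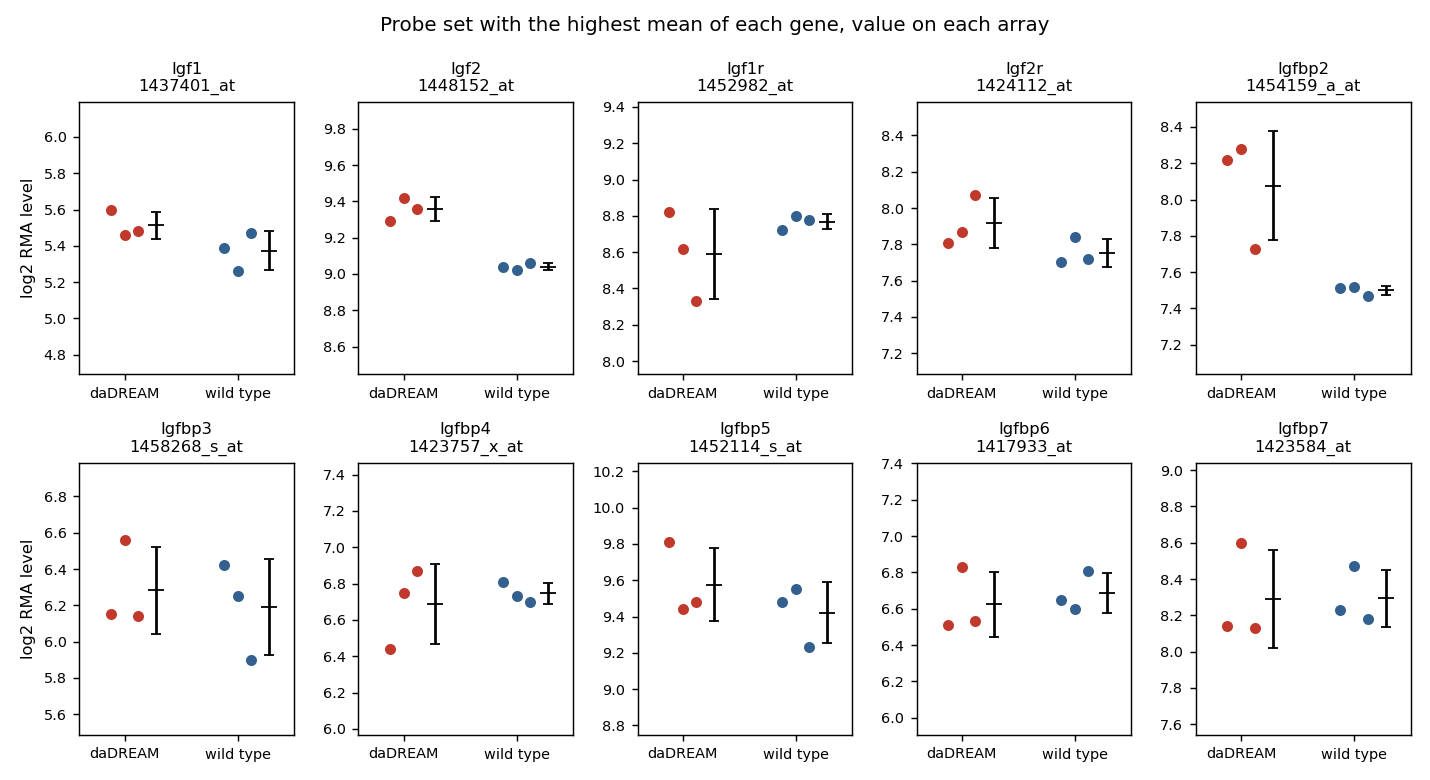
Level of the probe set with the highest mean of each gene on every array (log2 RMA), daDREAM in red and wild type in blue, with the mean and SD of 3 arrays beside the points. All panels span 1.5 log2 units, centred on the mean of the probe set. Igf2 and Igfbp2 are the panels in which the genotypes do not overlap, and daDREAM replicate 3 is the lowest daDREAM array of Igfbp2 at 7.73.

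Of the receptors, Igf1r leaned lower in daDREAM at 4 of 5 probe sets, and none passed. Its brightest probe set, 1452982_at, read 8.82, 8.62 and 8.33 in daDREAM and 8.72, 8.80 and 8.78 in wild type. The wild-type arrays were close together and the daDREAM arrays spanned them from above to below, with a difference of -0.18 and an interval from -0.51 to 0.16. The largest difference was at 1428967_at, which read 5.67, 5.27 and 5.10 in daDREAM and 5.67, 5.54 and 6.08 in wild type. Here daDREAM replicate 1 equalled wild-type replicate 1, and the difference was -0.42 with an interval from -0.87 to 0.03 (limma unadjusted p = 0.065, adjusted p = 0.998). Without daDREAM replicate 1 it was -0.58 (limma unadjusted p = 0.00977, adjusted p = 0.222), a setting in which 7254 of 45037 probe sets had an unadjusted p under 0.05. Leaving out wild-type replicate 3 instead gave -0.26. The remaining 3 Igf1r probe sets differed by 0.00, -0.04 and -0.05.

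Igf2r, the clearance receptor for IGF2 and for mannose 6-phosphate, gave opposite signs at its 2 probe sets. The brighter, 1424112_at, read 7.81, 7.87 and 8.07 in daDREAM and 7.70, 7.84 and 7.72 in wild type. The ranges overlapped through wild-type replicate 2, and the difference was 0.16 (interval -0.12 to 0.45). The other, 1424111_at, read 7.52, 6.81 and 6.93 in daDREAM and 7.42, 7.30 and 6.88 in wild type, a difference of -0.11 (interval -0.62 to 0.39). On that probe set the replicates of each genotype differed by more than the genotypes did.

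Of the binding proteins, Igfbp2 had the largest difference of the 28 members. Igfbp2 encodes a carrier of both ligands that is abundant in cerebrospinal fluid. Probe set 1454159_a_at read 8.22, 8.28 and 7.73 on the daDREAM arrays and 7.51, 7.52 and 7.47 on the wild-type arrays. All daDREAM arrays were above all wild-type arrays, and daDREAM replicate 3 was much nearer to wild type than the others. The means were 8.08 ± 0.30 in daDREAM and 7.50 ± 0.03 in wild type (SD, n = 3 each), a difference of 0.58 or 1.49-fold with an interval from 0.21 to 0.95 (limma unadjusted p = 0.00716, adjusted p = 0.998). The difference was 0.75 without daDREAM replicate 3 and 0.48 without daDREAM replicate 2.

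Igfbp5, the protein-coding gene next to Igfbp2 on chromosome 1, encodes a binding protein that attaches to extracellular matrix. Its probe set 1452114_s_at read 9.81, 9.44 and 9.48 in daDREAM and 9.48, 9.55 and 9.23 in wild type. The genotypes overlapped, and the difference was 0.16 (interval -0.19 to 0.50). The other probe set, 1422313_a_at, differed by -0.10 (interval -0.40 to 0.20).

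Igfbp4, a binding protein that the protease PAPP-A cleaves to release its ligand, was read by 6 probe sets that disagreed. Differences were -0.32, -0.24, -0.18 and -0.06 at 4 of them and 0.15 and 0.16 at the other 2. Probe set 1437406_x_at read 6.03, 6.09 and 5.92 in daDREAM and 6.28, 6.21 and 6.28 in wild type. It was the member whose genotypes did not overlap with daDREAM lower, by -0.24 (interval -0.50 to 0.02, limma unadjusted p = 0.0619, adjusted p = 0.998).

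Single arrays carried much of the Igfbp4 pattern. Probe sets 1421991_a_at and 1421992_a_at were lowest in daDREAM replicate 1, at 5.39 and 5.10, and highest in daDREAM replicate 3, at 6.27 and 5.88. Probe set 1423756_s_at read 5.39, 5.13 and 5.16 in daDREAM and 5.75, 5.75 and 4.73 in wild type, so wild-type replicate 3 stood below all others by 0.4 or more. Without wild-type replicate 3 its difference was -0.52 (limma unadjusted p = 0.00789, adjusted p = 0.96), against -0.18 with all arrays. Probe set 1437405_a_at did likewise, with a difference of -0.54 without wild-type replicate 3 (limma adjusted p = 0.96) and of -0.32 with all arrays.

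All probe sets of Igfbp3, Igfbp6 and Igfbp7 had 95% intervals that included 0. Igfbp3 encodes the main carrier of IGFs in serum, and its 2 probe sets differed by 0.19 (interval -0.13 to 0.52) and 0.09 (interval -0.32 to 0.51). It was the single gene of the 8 with several probe sets at which all had 1 sign. Igfbp6, whose product prefers IGF2, read 6.51, 6.83 and 6.53 in daDREAM and 6.65, 6.60 and 6.81 in wild type, a difference of -0.06 (interval -0.38 to 0.25). Igfbp7, a low-affinity relative made by blood vessels, differed by -0.00 at its brightest probe set (interval -0.38 to 0.37) and by 0.14 and 0.21 at the others.

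**Figure D3:**
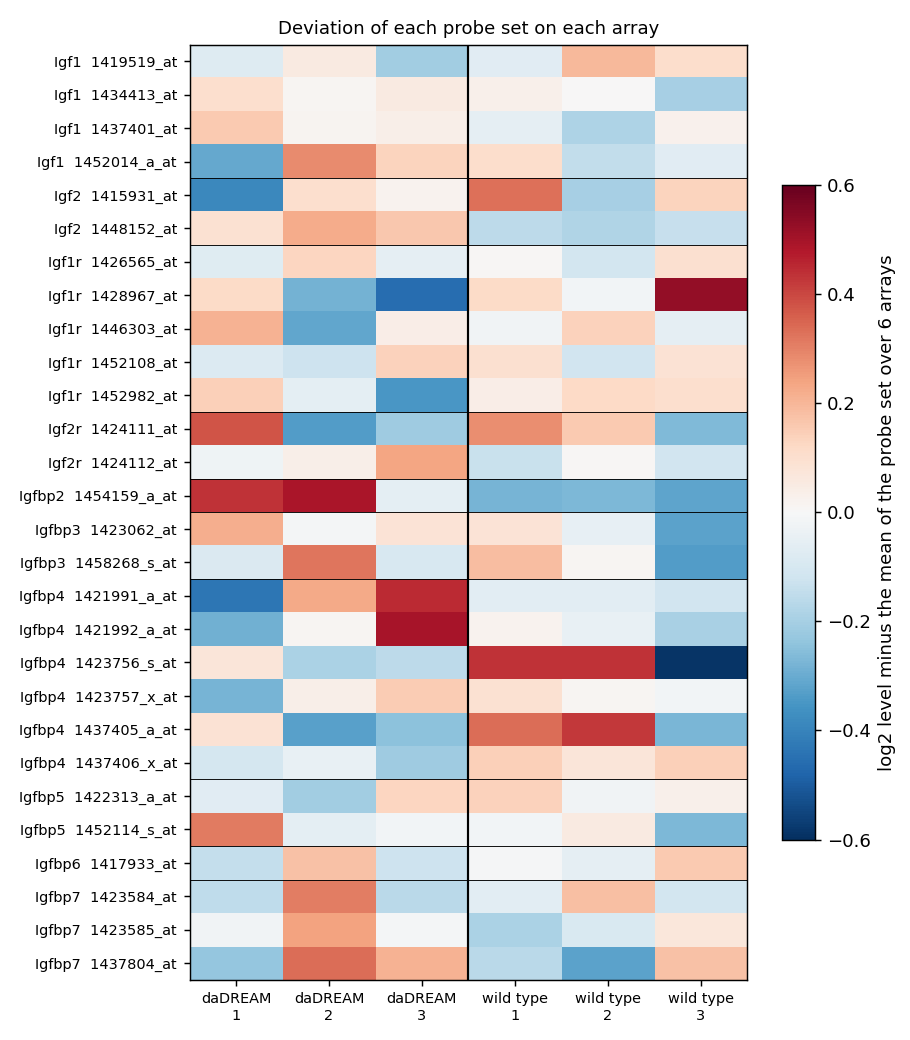
Deviation of each member probe set on each array from its own mean over the 6 arrays (log2), daDREAM arrays left of the line and wild-type arrays right of it. Igf2 1448152_at and Igfbp2 1454159_a_at are low on all 3 wild-type arrays, while the Igfbp4 probe sets take opposite signs within an array: in daDREAM replicate 3, 1421991_a_at stands at 6.27, above its mean of 5.82, and 1437405_a_at at 6.08, below its mean of 6.33.

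None of the other genes of the pathway passed the test. Of 42 genes listed (insulin receptor family, adaptors, PI3K, AKT and mTOR components, IGF mRNA-binding proteins, and proteases and inhibitors acting on binding proteins), 37 were measured under a single symbol. At the brightest probe set of each, 19 were higher, 18 lower and 0 passed limma after adjustment, with 0 at an unadjusted p under 0.05 (1.81% of all probe sets) and a median difference of 0.00. The genotypes did not overlap at 1 of the 37, against 6.01% of all probe sets. This was Gsk3b, a kinase that AKT inhibits, which averaged 9.64 ± 0.06 in daDREAM and 9.44 ± 0.07 in wild type (n = 3 each), a difference of 0.20. The largest positive differences beside it were in Ghr, the growth hormone receptor, at 0.31 (interval -0.11 to 0.74), Pik3cb, a PI3K catalytic subunit, at 0.26, and Foxo3, a transcription factor that AKT inhibits, at 0.19. The largest negative ones were in the adaptor Irs1 at -0.27 (interval -0.68 to 0.15), in Grb14 and Grb10, adaptors that dampen receptor signalling, at -0.26 and -0.23, and in the protease gene Pappa at -0.23.

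Most markers of tissues that border the cerebellum had a higher mean in daDREAM, as Igf2 at its bright probe set and Igfbp2 did. None of these markers passed limma after adjustment. The limma intervals included 0 at 11 of 17 choroid plexus markers and at 17 of 18 meningeal fibroblast markers. The lists were chosen with earlier results known, and Igf2 and Igfbp2 were singled out by the same genotype split. The shares below are therefore descriptions. Of 17 measured choroid plexus markers 16 were higher in daDREAM, where 51.9% of all probe sets were, with a median difference of 0.21. The genotypes did not overlap at 7, all higher in daDREAM, against 3.75% of all probe sets. Their mean level ran from 5.76 to 5.91 in daDREAM and from 5.38 to 5.60 in wild type, and their summed level, as log2, from 12.94 to 13.14 in daDREAM and from 12.39 to 12.79 in wild type. Ttr, the transthyretin gene and the brightest of them, read 12.93, 12.98 and 12.79 in daDREAM and 12.22, 12.56 and 12.64 in wild type. Its mean was 12.69, against 6.84 for Ecrg4, the next brightest, so the summed level is largely that of Ttr and adds little to it. Aqp1, among the 7 without overlap, was dim, with a mean of 3.63. Of 18 meningeal fibroblast markers 16 were higher, against the same 51.9%, with a median of 0.12. Their mean level ran from 6.04 to 6.08 in daDREAM and from 5.91 to 5.96 in wild type. Their summed level, as log2, ran from 10.66 to 10.73 in daDREAM and from 10.53 to 10.60 in wild type. The genotypes did not overlap at 3 of the 18, all higher in daDREAM, against 3.75% of all probe sets. In these daDREAM was higher by 0.37 in Slc13a4, 0.24 in Slc6a13 and 0.19 in Slc22a6, all solute carriers chosen after their values were seen. The 2 brightest, Mgp and Col1a2, both matrix genes, overlapped and differed by 0.15 and 0.05. RMA has no value at 0, so absence of a marker could not be read. The part of these cells in the Igf2 and Igfbp2 differences was not tested.

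Among other cell types, 10 of 11 microglial markers were higher, where 51.9% of all probe sets were. The limma intervals included 0 at 10 of these 11, none passed after adjustment, and such shares are again descriptions. The mean level of these markers ran from 5.74 to 5.87 in daDREAM and from 5.61 to 5.69 in wild type. Their summed level, as log2, ran from 9.94 to 10.11 in daDREAM and from 9.83 to 9.90 in wild type, and their part in the results was not tested either. The genotypes did not overlap at 1 of the 11, higher in daDREAM, against 3.75% of all probe sets. This was C1qc, which read 6.62, 6.78 and 6.44 in daDREAM and 6.29, 6.34 and 6.25 in wild type. Csf1r and C1qb, the brightest, overlapped and differed by 0.13 and 0.24. The mean levels of ependymal, endothelial, mural, astrocyte and Bergmann glia, oligodendrocyte, Purkinje, granule and blood markers overlapped between genotypes. Their medians lay between -0.09 for astrocytes and Bergmann glia and 0.12 for ependymal cells. Of the 10 ependymal markers 8 were higher in daDREAM. The genotypes did not overlap at 3 of these 10, all higher in daDREAM, against 3.75% of all probe sets. Fewer were higher among astrocyte and Bergmann glia (3 of 11), oligodendrocyte (2 of 9) and Purkinje (2 of 8) markers. The counts were 5 of 11 endothelial, 6 of 10 mural, 4 of 9 granule and 2 of 5 blood markers. Without overlap, 1 endothelial and 1 oligodendrocyte marker were lower in daDREAM (2.26% of all probe sets), and 1 mural and 1 oligodendrocyte marker were higher.

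**Figure D4:**
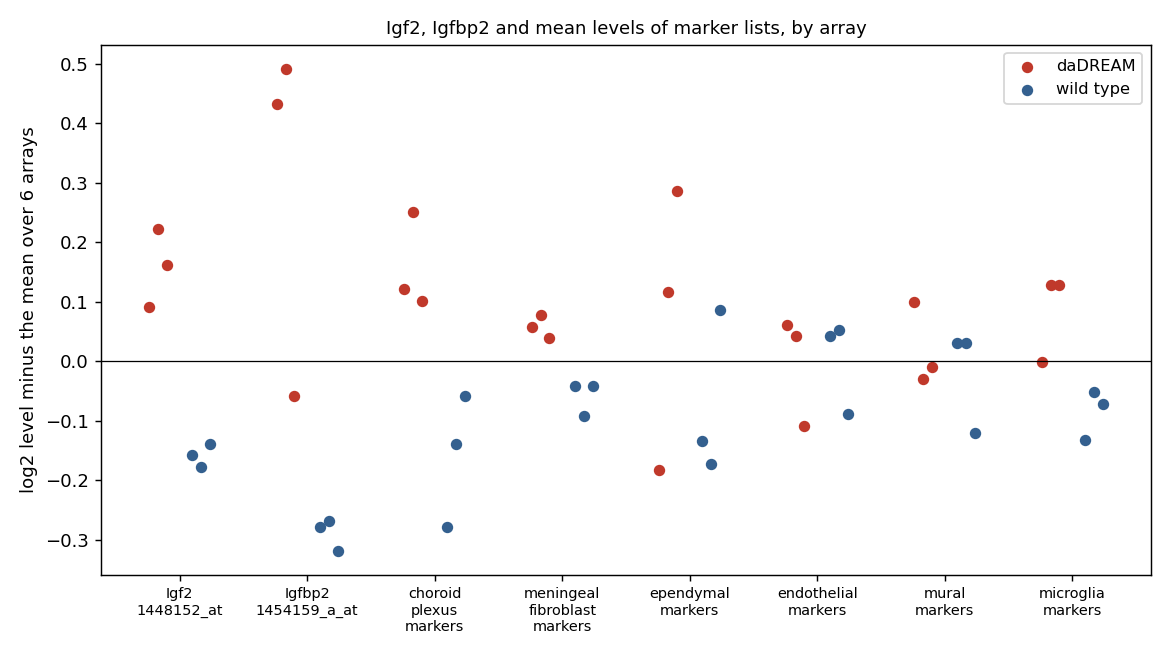
Igf2 1448152_at, Igfbp2 1454159_a_at and the mean level of 6 marker lists on each array (log2), each minus its mean over the 6 arrays, daDREAM in red and wild type in blue. Igf2, Igfbp2 and the choroid plexus, meningeal fibroblast and microglial lists have every daDREAM array above every wild-type array, and the ependymal, endothelial and mural lists overlap.

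Profiles over the 6 arrays were compared with those of 4318 genes whose brightest probe set had a mean of at least 6 and a range of at least 0.5. The genes most like Igf2 were Cspg5, a neural chondroitin sulfate proteoglycan (Pearson r = 0.987), Prelp, a matrix proteoglycan (r = 0.957), Amigo1, a neuronal adhesion protein (r = 0.956), Kri1 (r = 0.953) and Zfp335 (r = 0.944). Those most like Igfbp2 were Ecrg4, a secreted peptide precursor of the choroid plexus (r = 0.981), C1qc, a complement subunit (r = 0.975), Slc6a7, a proline transporter (r = 0.960), Mgat5b, a glycosyltransferase (r = 0.953) and Cap1, an actin regulator (r = 0.946). Ecrg4 read 7.22, 7.36 and 6.74 in daDREAM and 6.46, 6.67 and 6.56 in wild type, with daDREAM replicate 3 lowest among the daDREAM arrays as for Igfbp2. These are the highest of many correlations over 6 arrays that share the genotype split, so they are descriptions and carry no test.

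**Figure D5:**
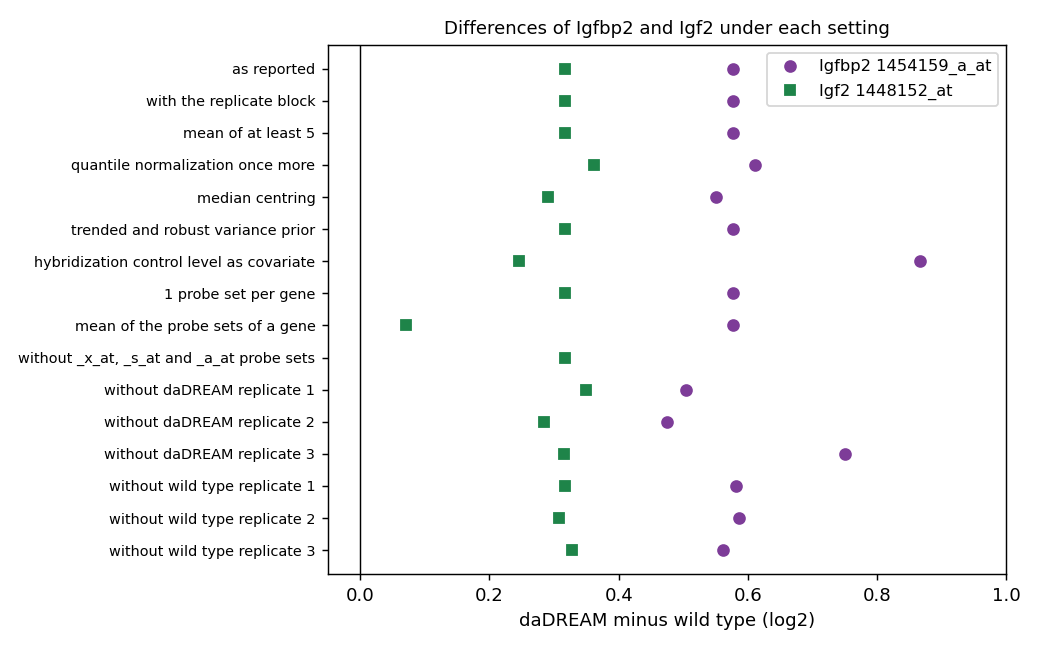
Difference of Igfbp2 1454159_a_at (circles) and Igf2 1448152_at (squares), daDREAM minus wild type in log2 units, as reported and under each other processing or set of arrays. Igfbp2 stays between 0.48 and 0.87, and Igf2 between 0.25 and 0.36 except for 0.07 when its 2 probe sets are averaged.

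When the spiked control level was added as a covariate, the Igfbp2 difference was 0.87 (limma adjusted p = 0.0902) and that of Igf2 1448152_at was 0.25 (limma adjusted p = 0.34). That level was higher in daDREAM on average, so the fit cannot cleanly separate it from genotype. In that fit 10471 of 45037 probe sets had an unadjusted p under 0.05. Under all 14 alternatives that kept its probe set, this one included, the Igfbp2 difference had an unadjusted p under 0.05, and under none of them did it pass after adjustment. Igf2 1448152_at had one in 10 of 15 alternatives. It did not without daDREAM replicate 2 (limma unadjusted p = 0.0706), without wild-type replicate 1 (unadjusted p = 0.0644) or 2 (unadjusted p = 0.0645), with the covariate (unadjusted p = 0.127) or with its probe sets averaged (unadjusted p = 0.587). With 3 arrays against 3, a 2-sided exact permutation test of a single probe set cannot go below p = 0.1, so none was run. The 95% intervals, which are not adjusted for the number of probe sets, reached a median of 0.34 to either side over the members. That width is not the size of difference that the adjusted test could detect. Igfbp2 at 0.58 did not pass it, and no probe set did, with differences over all probe sets from -2.22 to 1.07.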

How the data were processed

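The log2 values were deposited by the authors as 1 number for each array and probe set, made with RMA in the affy package per the submitters' processing notes, which give no version. RMA corrects background, gives the arrays 1 distribution of probe intensities and summarises each probe set, which compresses differences of dim probe sets. The values carry 2 decimals and no detection calls, and no scanner files were analysed here.

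The 64 control probe sets of 45101 were left out. Genes come from the platform annotation: 34945 probe sets have 1 symbol, 932 several and 9160 none. Probe sets of several genes were given no name, 1 of which lists Igf2r. Genotypes and replicate numbers come from the sample titles. Differences are daDREAM minus wild type, tested 2-sided with lmFit and eBayes of limma 3.58.1 (R 4.3.3, 3 arrays per genotype, Benjamini-Hochberg over 45037 probe sets, threshold 0.05). On simulated arrays with independent noise, only the mean estimates were checked against the added changes, not the calls. The number of arrays limits precision.

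Members and lists were chosen with earlier results of these data known. Beside the members, the text names up to 4 other pathway genes per direction by size of difference, the 2 brightest markers of a list, and the 5 genes most like Igf2 and Igfbp2. Kcnip3 and Igf2os were added by choice. List genes are read at the probe set with the highest mean, and 156 of 171 list entries were found. The shares set beside the lists are over all probe sets. At the brightest probe set of each of 18193 genes, in the same fit, 51.2% were higher in daDREAM. Of these 18193, 646 were higher and 371 lower without overlap, and 259 had a limma unadjusted p under 0.05. Promoter sequences are RefSeq's (GRCm38.p6); all 10 genes matched. Alternatives were the replicate number as a block, a minimum mean of 5, quantile normalization once more, median centring, a trended and robust prior, the level of spiked hybridization controls as a covariate, 1 probe set or the mean per gene, no probe sets shared between transcripts, and each array left out in turn.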

Additional observations from a re-analysis of the deposited data

How the results depend on the processing

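No member, and no probe set of the whole table, passed limma after adjustment under any of the 15 alternatives. The number of members at an unadjusted p under 0.05 was 2 of 28, against 817 of 45037 probe sets, and 2 with the replicate block. It was 4 of 28 after quantile normalization once more, against 1361 of 45037 probe sets. With the spiked control level as a covariate it was 4 of 28, against 10471 of 45037, a smaller share than over all probe sets. With the probe sets of a gene averaged it was 1 of 10, against 337 of 18193. Leaving out probe sets shared between transcripts removes Igfbp2 itself and every probe set of Igfbp4 and Igfbp5. The number of members was then 1 of 17, against 562 of 36082. It ran from 1 to 5 when 1 array was left out. Without daDREAM replicate 1 it was 5 of 28, against 7254 of 45037, and without wild-type replicate 3 it was 4, against 1252. It was 1 without daDREAM replicate 2, against 356, and 1 without wild-type replicate 1, against 324. Over all probe sets that count was 387 without wild-type replicate 2, and leaving out 1 array gave 324 (wild-type replicate 1) to 7254 (daDREAM replicate 1). It was 478 of 23730 at a mean of at least 5, where 2 of 22 members had such a p. With 1 probe set per gene it was 270 of 18193, where 2 of 10 members had one. The median difference over members was 0.117 with 1 probe set per gene, against 0.00 over all probe sets of the members. Single member differences that passed no test turned in sign 29 times, 11 of them with the spiked control level as a covariate and 6 without daDREAM replicate 2. Igf2 1448152_at and Igfbp2 did not turn. Neither did several other members, among them Igf2 1415931_at (-0.51 to -0.03, lower in daDREAM), Igf1r 1428967_at and Igfbp6. With that covariate the 4 members at an unadjusted p under 0.05 were Igfbp2 at 0.87, Igf2r 1424111_at at 0.53, Igfbp5 1452114_s_at at 0.52 and Igfbp3 1423062_at at 0.45, all without passing after adjustment (limma adjusted p from 0.0902 to 0.185). The cause was not tested.

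The sample titles do not say that arrays with the same replicate number were handled together. Deviations of same-numbered arrays correlated at 0.119, -0.281 and 0.323 over probe sets. By these correlations daDREAM replicate 1 ran closest to wild-type replicate 2, and daDREAM replicates 2 and 3 to wild-type replicate 3. With 3 arrays per genotype, such values cannot settle if the numbers mark a shared batch. The replicate block changed no adjusted call, and gave 1093 probe sets at an unadjusted p under 0.05. Without detection calls, dim member probe sets such as Igf2 1415931_at cannot be told from background.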
